A study of Mus musculus with 4 samples.

Results

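The genes described here are those of the GDNF axis and of the spermatogonial stem cells that depend on it: Gdnf, Gfra1, Ret, Etv5, Id4, Nanos2, Zbtb16, Lin28a, Sall4 and Uchl1. They were chosen as a list of 10 symbols and matched by symbol to the deposited count table. Of the 10, 9 had a row among the 25265 genes of the table. Nanos2, which encodes an RNA-binding protein of the most primitive spermatogonia, had no row and is not analysed here. RNA came from whole testes of C57BL/6 mice at postnatal day 56, was depleted of ribosomal RNA and was made into directional libraries. The control label was given to 2 libraries and the Ythdf2-vKO label to 2 others, from mice that the series title calls germ cell-specific Ythdf2 mutants. The latter are called mutant-labelled here. The labels name neither the driver of the deletion nor the deleted exons, give no alleles for the controls, and do not say whether each library came from its own animal. P-values therefore measure the spread between these libraries, which may be technical.

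GDNF is a secreted growth factor made by Sertoli cells and peritubular myoid cells of the seminiferous tubule. It binds the membrane-anchored co-receptor GFRA1 on spermatogonial stem cells, and the pair activates the receptor tyrosine kinase RET. Signalling through RET and its kinase cascades sustains transcription factors such as ETV5 and ID4 and thereby stem cell self-renewal. These cells are a small fraction of an adult testis, which is filled mainly by spermatocytes and spermatids, so their transcripts are scarce in whole-testis RNA. YTHDF2, the product of the targeted gene, is a cytoplasmic reader of N6-methyladenosine that promotes decay of the RNAs it binds.

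Library totals ran from 24862518 to 29561182 counts. Ythdf2, the gene named in the label, did not have lower counts in the mutant-labelled libraries. In CPM, the usual depth-scaled count after TMM normalization, it measured 51.0 and 53.5 with the control label and 66.3 and 67.0 with the mutant label (adjusted p 0.238, edgeR). Whole-gene counts cannot tell a transcript with deleted exons from an intact one. Every direction given here is therefore that of the mutant-labelled libraries relative to the control libraries, by label. The tissue label was checked against germ cell markers, and Ddx4, a pan-germ RNA helicase gene, stood between 297.6 and 341.4 CPM in the 4 libraries.

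None of the 9 genes passed the test between genotypes. At an adjusted p under 0.05 edgeR called 0 of 9, against 0.393% of the 21132 genes tested (59 higher and 24 lower), and a DESeq2 Wald test also called 0, with no adjusted p for Ret. The fitted log2 fold changes were all above 0, from 0.01 for Ret to 0.63 for Gfra1, with a median of 0.43 beside 0.00265 over all genes tested. That all 9 lay above 0, against 50.3% of all genes tested, did not hold under an offset for GC content, where Ret (-0.015) and Uchl1 (-0.041) were below it. The groups did not overlap for 5 of the 9 (Gfra1, Id4, Zbtb16, Lin28a and Sall4), each time with the mutant-labelled libraries higher, while 22.7% of all genes tested did so in that direction and 22.6% in the other. An unadjusted p under 0.05 was found for 3 (Gfra1, Id4 and Lin28a), against 7.65% of all genes tested in the same direction. The balance of calls over all genes moved with the scaling, from 59 higher and 24 lower to 181 and 37 with library totals alone and to 89 and 67 with the GC offset.

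**Figure D1:**
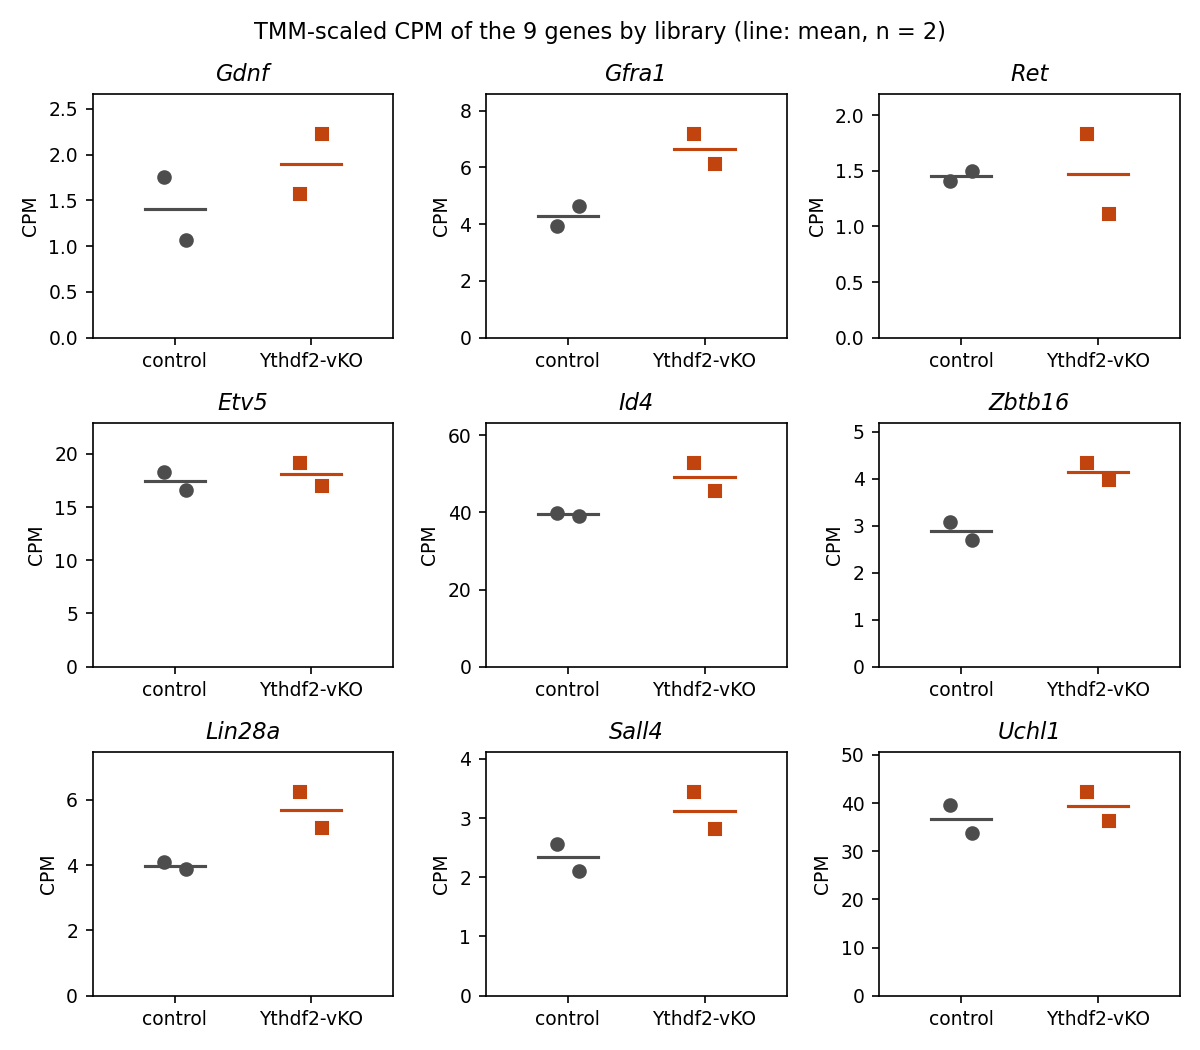
TMM-scaled CPM (vertical axes, each from 0) of the 9 genes in the 2 control libraries (grey circles) and the 2 mutant-labelled libraries (orange squares), with lines at the group means. The groups are apart for Gfra1, Id4, Zbtb16, Lin28a and Sall4 and overlap for Gdnf, Ret, Etv5 and Uchl1.

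The ligand was scarce. Gdnf (ENSMUSG00000022144, GRCm38 chromosome 15, 7810846 to 7837575, plus strand) was counted 41 and 32 times in the controls, against 42 and 60 times in the mutant-labelled libraries. These are 1.75 and 1.07 CPM against 1.57 and 2.22 CPM, so that the first control library lay above the first mutant-labelled library and the groups overlapped. At such counts the counting error is wide: the exact 95% Poisson interval was 21.9 to 45.2 for the 32 counts and 45.8 to 77.2 for the 60, and it covers counting error only. The log2 fold change was 0.44 (SE 0.39, 95% interval -0.40 to 1.28, adjusted p 0.673 by edgeR). It was 0.11 without control replicate 2 and 0.82 without control replicate 1, and 0.17 without replicate 2 and 0.67 without replicate 1 of the mutant-labelled group. The size of any difference in Gdnf was not detectable with these counts.

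Since Gdnf is made by somatic cells, it was also set against Sertoli cell transcripts. Of 16 Sertoli markers 15 were tested, all 15 had a log2 fold change above 0 (median 0.44), and their summed level was 1030 and 1118 CPM in control against 1466 and 1297 CPM in the mutant-labelled ones. Of all genes tested 50.3% were above 0. The groups did not overlap for 12 of the 15, all higher in the mutant-labelled libraries, against 22.7% of all genes tested in that direction. By edgeR 9 of the 15 had an unadjusted p under 0.05, all higher, against 7.65% of all genes tested. No Sertoli marker was at 0 in any library. Wt1, a transcription factor gene that defines these cells, was the only one of the 15 called, from 32.0 ± 1.1 to 52.5 ± 2.45 CPM (SD, n = 2). Its adjusted p was 0.0418 by edgeR, but 0.0501 without robust estimation, 0.462 without mutant-labelled replicate 1 and 0.212 without mutant-labelled replicate 2. Per 1000 CPM of the Sertoli markers, Gdnf amounted to 1.70 and 0.955 CPM in the controls and to 1.07 and 1.71 CPM in the mutant-labelled libraries. On this scale the groups spanned almost the same range. Most of the Sertoli sum was Clu, with 658.3 and 715 CPM in the controls and 934.1 and 801.2 CPM in the mutant-labelled libraries. The scale therefore mainly follows that gene. In whole-testis RNA a different number of cells and a different amount of RNA per cell cannot be told apart, and the part of the Sertoli transcripts in the values of the other genes was not tested. Peritubular myoid markers, the other somatic source, summed to 262.5 and 300.9 CPM in the controls and to 302.1 and 251.6 CPM in the mutant-labelled libraries, with 3 of 7 above 0. Most of each sum was Actg2, with 179.7 and 175.8 CPM in the controls and 172 and 148 CPM in the mutant-labelled libraries. The sum therefore says little of the other myoid genes.

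Of the receptors, the ligand-binding co-receptor Gfra1 (ENSMUSG00000025089, chromosome 19, 58235604 to 58455909, minus strand) showed the largest difference of the 9. The controls held 92 and 139 counts and the mutant-labelled libraries 192 and 165, or 3.94 and 4.64 CPM against 7.17 and 6.12 CPM. Every mutant-labelled library lay above every control library. The log2 fold change was 0.63 (SE 0.23, 95% interval 0.14 to 1.11), a 1.55-fold higher level. By edgeR its unadjusted p was 0.0154 and its adjusted p 0.235, so it did not pass. The authors' deposited table gave 0.63 (SE 0.29) with an adjusted p of 0.352. Gm16277, an antisense gene, shares 416 exonic bases with Gfra1. Its own counts of 148 and 202 (control) and 173 and 232 (mutant-labelled) overlapped in CPM. Whether reads were counted by strand is not given in the sources used here, so reads from the shared stretch cannot be assigned and the Gfra1 counts are uncertain to that extent. Genes of the opposite strand also share 526, 295 and 234 exonic bases with Sall4, Uchl1 and Lin28a, and 171 and 82 with Id4. Those with a row had few counts of their own. Uchl1os had 2 to 6 in a library, beside 924 to 1131 for Uchl1. A330033J07Rik, which shares the 82 bases, had 1 to 5, beside 932 to 1412 for Id4. The genes that overlap Sall4 and Lin28a, and the one sharing 171 bases with Id4, had no row.

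Ret (ENSMUSG00000030110, chromosome 6, 118151745 to 118197718, minus strand), the signalling receptor, had no clear direction. The controls held 33 and 45 counts and the mutant-labelled libraries 49 and 30, or 1.41 and 1.5 CPM against 1.83 and 1.11 CPM. The mutant-labelled libraries bracketed the control libraries. The log2 fold change was 0.01 (SE 0.39), but the 95% interval of -0.83 to 0.86 includes the value of Gfra1, and the difference between the receptors was not tested. It was -0.39 without mutant-labelled replicate 1 and 0.33 without mutant-labelled replicate 2. Relative to the summed pan-germ genes (Ddx4, Dazl, Mael, Tex101 and Tdrd1), Gfra1 stood at 2.08 and 2.36 CPM per 1000 in control and at 3.99 and 3.54 in the mutant-labelled libraries. Those pan-germ genes summed to 1894 and 1967 CPM in the controls and to 1798 and 1729 CPM in the mutant-labelled libraries, with 5 of 5 log2 fold changes below 0 and none called.

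Of the transcription factors downstream of the receptor, Id4 had groups that were apart and Etv5 did not. Id4 (ENSMUSG00000021379, chromosome 13, 48261228 to 48266026, plus strand) encodes an inhibitor of basic helix-loop-helix factors that marks stem cells, and measured 39.9 and 39.1 CPM in the controls, against 52.8 and 45.6 CPM in the mutant-labelled libraries. Its groups did not overlap, and its log2 fold change was 0.32 (SE 0.14, 95% interval 0.02 to 0.61, adjusted p 0.314 by edgeR). Over the other scalings, filters, tests and blocks its adjusted p ran from 0.0528, under a GC offset joined to a replicate block, to 0.427. In control its level per kb of exon stood at percentile 73.4 of all genes tested, against 24.4 for Gfra1. Which cells the Id4 counts came from was not tested. Etv5 (ENSMUSG00000013089, chromosome 16, 22381309 to 22439719, minus strand) encodes an ETS factor induced by GDNF, and is also made by Sertoli cells. The controls had 18.3 and 16.6 CPM of it and the mutant-labelled libraries 19.1 and 17.0 CPM, which overlap. The log2 fold change was 0.05 (SE 0.16), with a 95% interval of -0.29 to 0.39 and an adjusted p of 0.929 by edgeR.

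Zbtb16, Lin28a and Sall4, genes of undifferentiated spermatogonia, had log2 fold changes close to each other. Zbtb16 (ENSMUSG00000066687, chromosome 9, 48654297 to 48836222, minus strand), the gene of the zinc finger repressor PLZF, had 3.08 and 2.70 CPM in the controls against 4.33 and 3.97 CPM in the mutant-labelled libraries. Lin28a (ENSMUSG00000050966, chromosome 4, 134003330 to 134018841, minus strand), whose protein blocks let-7 maturation in progenitors, had 4.11 and 3.87 CPM against 6.24 and 5.15 CPM. Sall4 (ENSMUSG00000027547, chromosome 2, 168748332 to 168767943, minus strand), a zinc finger factor gene also known from embryonic stem cells, had 2.57 and 2.1 CPM against 3.44 and 2.82 CPM. In each of them both mutant-labelled libraries lay above both control libraries. The log2 fold changes were 0.52 (SE 0.26) for Zbtb16, 0.51 (SE 0.23) for Lin28a and 0.43 (SE 0.29) for Sall4, with adjusted p values of 0.387, 0.339 and 0.563 by edgeR. Gfra1 per 100 CPM of these genes together came to 40.4 and 53.5 CPM in the controls and to 51.2 in each mutant-labelled library, so the groups overlapped on that scale.

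Uchl1 (ENSMUSG00000029223, chromosome 5, 66676091 to 66687234, plus strand) encodes the deubiquitinase PGP9.5, used as a stain for spermatogonia and also abundant in nerves. The controls had 39.5 and 33.7 CPM of it and the mutant-labelled libraries 42.3 and 36.4 CPM, with overlapping groups. The log2 fold change was 0.10 (SE 0.15, 95% interval -0.21 to 0.42, adjusted p 0.812 by edgeR). Neural and glial markers, fixed because Uchl1 is shared with them, summed to 59.2 and 58.8 CPM in the controls and to 75.3 and 65.8 CPM in the mutant-labelled libraries, with 3 of 7 tested above 0. Tubb3 had the highest CPM of them, with 29.4 and 32.0 CPM in the controls and 49.5 and 42.9 CPM in the mutant-labelled libraries. Of the 8 listed only Snap25 was at 0 in a library. Their part in the Uchl1 value was not tested.

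**Figure D2:**
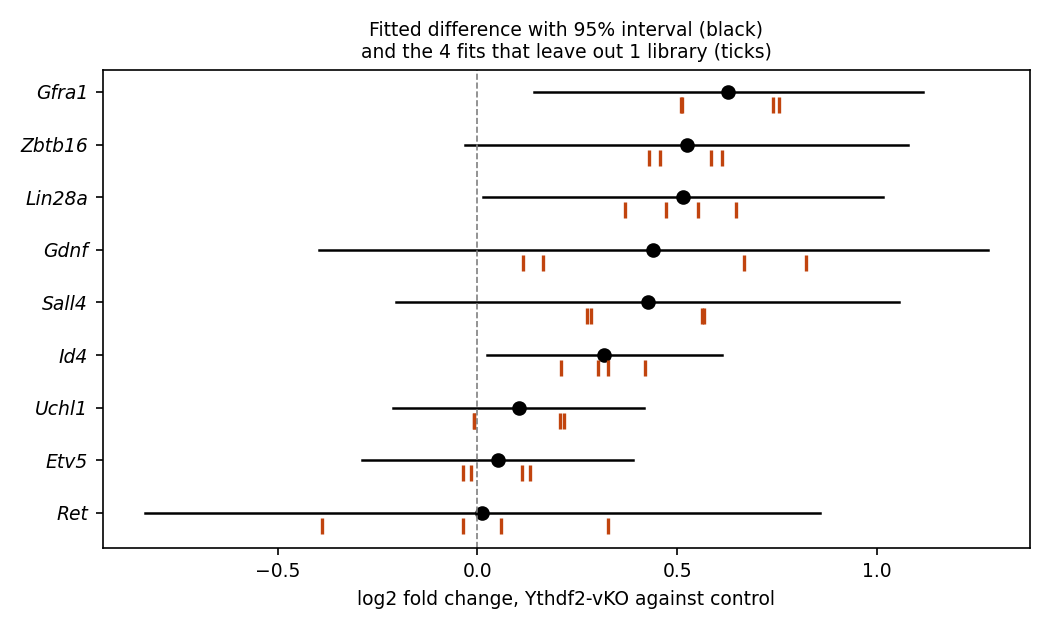
Fitted log2 fold change of each gene (horizontal axis, mutant-labelled libraries against control) with its 95% interval in black, and as orange ticks the values of the 4 fits that each leave out 1 library. Only the intervals of Gfra1, Lin28a and Id4 lie wholly above 0 before adjustment, and the ticks of Ret run from -0.39 to 0.33.

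Per kilobase of exon the 9 genes spanned a wide range of levels. Uchl1 was highest, with a mean over the 4 libraries of 23.3 CPM per kb, followed by Id4 at 11.5 and Etv5 at 4.33, and the ranges of these neighbours over the libraries did not overlap. Lin28a (1.21), Gfra1 (0.998), Zbtb16 (0.666), Sall4 (0.493) and Gdnf (0.450) followed, and each overlapped the next in range. Ret was lowest at 0.216 and did not overlap Gdnf. Among all genes tested, control levels per kb put Uchl1 at percentile 85.2, Gfra1 at percentile 24.4 and Ret at percentile 7.59. Gfra2 and Gfra4, the co-receptors of neurturin and persephin, were named after their values were seen: they stood at 15.9 ± 3.0 and 12.6 ± 0.326 CPM per kb in control (SD, n = 2), against 0.783 ± 0.0905 for Gfra1.

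**Figure D3:**
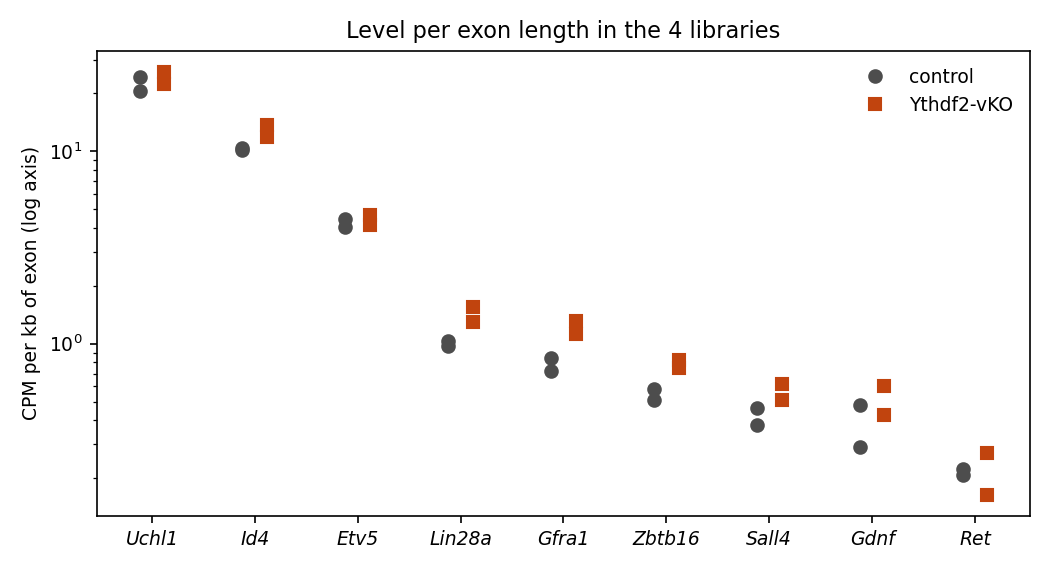
Level of each gene in CPM per kb of exon (log axis) in the control libraries (grey circles) and the mutant-labelled libraries (orange squares), ordered by the mean over the 4 libraries. Uchl1, Id4 and Etv5 stand apart from the 6 scarcer genes, which end with Ret at 0.216.

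The rest of the pathway was read from lists of ligands and co-receptors, RET adaptors, GDNF-responsive genes, other niche factors, and undifferentiated and differentiating spermatogonia. Of their 99 genes 86 were tested, and 1 was called higher and 0 lower by edgeR, against 0.279% and 0.114% of all genes tested. A DESeq2 Wald test also called 1 higher and 0 lower. At an unadjusted p under 0.05, 12 were higher and 2 lower, against 7.65% and 6.47% of all genes tested. The median log2 fold change of the 86 was 0.11, and 62.8% of them were above 0, beside 50.3% of all genes tested. The counts above 0 in each list stand beside that same 50.3%.

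The called gene was Wnt6, a WNT ligand gene of Sertoli cells, with 13.9 and 14.4 CPM in the controls against 27.0 and 22.9 CPM in the mutant-labelled libraries. It rose by 0.82 on the log2 scale (SE 0.16), at an adjusted p of 0.0483 by edgeR. The call was lost with DESeq2 size factors (adjusted p 0.0504), without robust estimation (0.0539) and with the GC offset (0.118, log2 fold change 0.58). It was also lost without mutant-labelled replicate 1 (0.511) and without mutant-labelled replicate 2 (0.132). Fgf2, a fibroblast growth factor that acts with GDNF on cultured stem cells, had the lowest value of the niche genes above 1 CPM, with 1.58 and 1.93 CPM in the controls and 1.49 and 1.30 CPM in the mutant-labelled libraries.

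GDNF-responsive genes had a median log2 fold change of 0.34, with 8 of 12 above 0, against 50.3% of all genes tested, and 0 called. Tspan8, a tetraspanin gene used to enrich stem cells, had the largest value, with 1.45 and 2.27 CPM in the controls against 3.85 and 4.08 CPM in the mutant-labelled libraries. The log2 fold change of 1.07 (SE 0.30) had an adjusted p of 0.146 by edgeR. Of those above 1 CPM, Spry4, a feedback inhibitor of receptor tyrosine kinase signalling, had the lowest, with 2.95 and 2.37 CPM against 2.17 and 2.22 CPM. By edgeR an unadjusted p under 0.05 was found for Tspan8, the cyclin gene Ccnd2 and the chemokine receptor gene Cxcr4. All had higher values in the mutant-labelled libraries, as did 7.65% of all genes tested at that p.

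Among ligands and co-receptors 4 of 8 tested genes were above 0 (median -0.06), and none was called. The extremes above 1 CPM were both ligands: Artn, encoding artemin, at a log2 fold change of 0.53, and Nrtn, encoding neurturin, at -0.22. Of the 26 RET adaptors and kinases tested 16 were above 0 (median 0.11) and none was called. Grb2, an adaptor linking RET to RAS, had 10.4 and 10.3 CPM in the controls against 16.2 and 16.8 CPM, or 0.67 on the log2 scale (SE 0.16, adjusted p 0.105 by edgeR). Pik3cb, a catalytic subunit of phosphoinositide 3-kinase, had the lowest value of this list at -0.40 (SE 0.16, adjusted p 0.291 by edgeR).

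Spermatogonial genes outside the chosen 9 were not uniformly higher. Of 21 other undifferentiated spermatogonia genes tested 12 were above 0 and the median was 0.02. Itga6, a laminin-binding integrin gene, was highest of those above 1 CPM at 0.57 (SE 0.17, adjusted p 0.164 by edgeR), and Rarg, the retinoic acid receptor gene of progenitors, was lowest of those at -0.27 (SE 0.26). Below 1 CPM, and named after its values were seen, Eomes, a T-box factor gene, had 17 and 37 counts in the controls and 3 and 5 in the mutant-labelled libraries, so that its groups did not overlap. Its log2 fold change of -2.7 (SE 0.66) was the farthest from 0 of the 86 listed genes tested and did not pass (adjusted p 0.105 by edgeR). Neurog3, a progenitor factor gene, was counted 5 and 1 times in the controls and 15 and 2 times in the mutant-labelled libraries, and was not tested. In the differentiating list 8 of 11 were above 0 (median 0.13). Kit, the receptor that differentiating spermatogonia acquire, had 13.2 and 12.1 CPM in the controls against 17.9 and 15.7 CPM, or 0.41 on the log2 scale (SE 0.16, adjusted p 0.289 by edgeR). The extremes of this list were Dnmt3a, a DNA methyltransferase gene, at 0.52 and the protease gene Prss50 at -0.07. The ratio of Gfra1 to Kit was 0.298 and 0.382 in control and 0.402 and 0.389 in the mutant-labelled libraries.

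**Figure D4:**
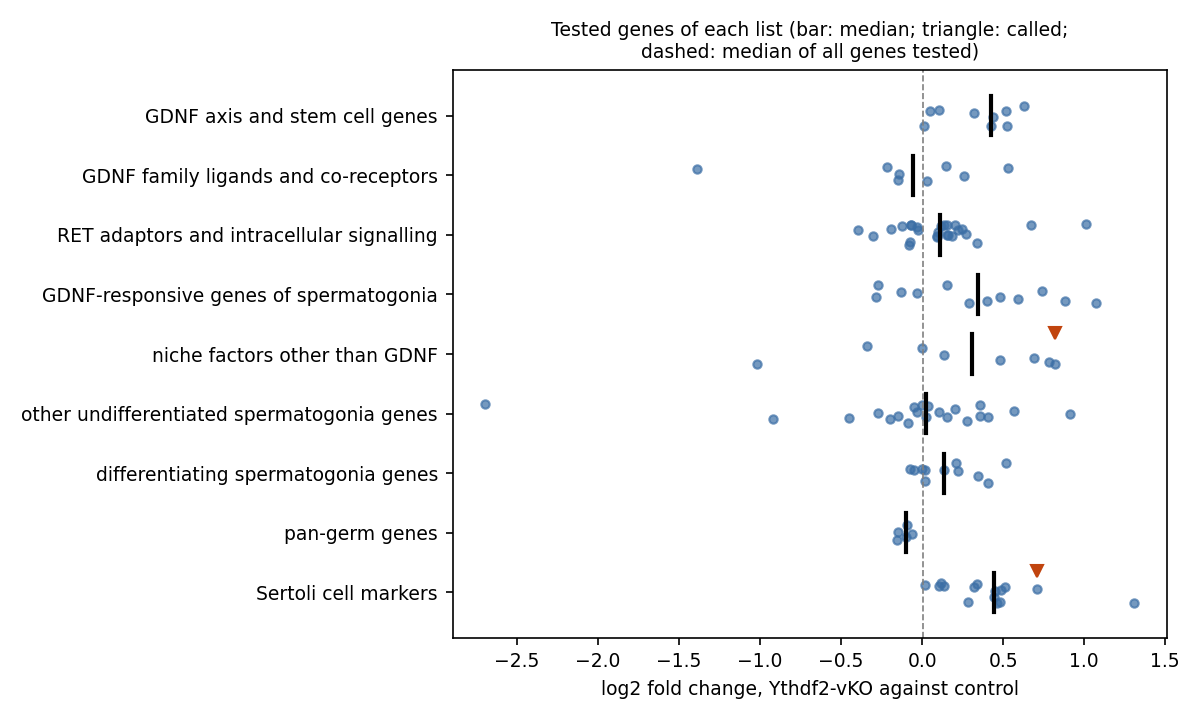
Log2 fold changes (horizontal axis) of the tested genes of each list, with a black bar at the list's median, a triangle over each called gene and a dashed line at the median of all genes tested. The medians are 0.43 for the 9 genes and 0.44 for Sertoli cell markers, and the 2 called genes are Wnt6 and Wt1.

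By the shape of their values over the 4 libraries, the listed pathway and spermatogonia genes closest to the median profile of the 9 were Fyn, Akt1 and Ddit4. Fyn and Akt1 encode kinases that act below RET, and Ddit4 encodes an inhibitor of mTOR signalling. Their root mean square distances from that profile were 0.0414, 0.0527 and 0.0542 on the log2 scale, the smallest of 86 genes. With 4 libraries many genes share a profile, so this is a description.

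Because the targeted protein reads methylated adenosine, transcripts were searched for GGACT, the commonest form of the m6A consensus, on the sense strand of the longest coding transcript of GENCODE M21 (GRCm38). Methylation itself was not measured, and a match is not a methylated site. The match nearest the stop codon is shown for Ret, whose match is the nearest of the 9, and for Gfra1 and Lin28a, which had the largest fold changes among genes whose nearest match lies in the 3 prime UTR. Each window has GGACT in capitals and 8 flanking bases on each side.
Ret: acggtaatGGACTcccaaggg
Gfra1: gcttcaggGGACTgtttgtaa
Lin28a: tggggaagGGACTcccaggag
These begin 22, 229 and 390 bases after the last base of the stop codon. All 9 transcripts held the motif, as did 90.7% of the 17290 coding genes of the table. Counted from the first base of the match to the last base of the stop codon, Ret had a match within 100 bases, as did 23.9% of those genes, and the match of Uchl1 lay just outside this window, in the coding sequence at -102 bases. Per kilobase of transcript the 9 genes ran from 0.587 matches in Zbtb16 to 1.83 in Ret and 1.94 in Gfra1, and the median over the 17290 coding genes was 1.04. Any relation between the motif and the values of these genes was not tested.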

How the data were processed

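The authors deposited 1 table with raw counts per gene for the 4 libraries, per the file headers. HISAT2 2.1.0 and HTSeq 0.6.1p1 are named in the submitters' processing notes, with no role. The genome build and the use of strand are not given in the sources used here. Per the file headers, the deposited table also gives a mean signal of normalized counts, log2 fold changes, their standard errors, and p-values under DESeq2's column names. Recomputing that mean normalized count from the counts gave a largest relative difference of 4.93e-10. A further score column was deposited and not used.

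Counts were tested with edgeR 4.0.16 (limma 3.58.1, R 4.3.3): TMM, filterByExpr, robust quasi-likelihood fit of genotype over all 4 libraries, two-sided, Benjamini-Hochberg over 21132 genes, called at adjusted p under 0.05. SE is the log2 fold change divided by the square root of F, and 95% intervals use the fit's degrees of freedom. The test was also run on simulated counts, drawn with the same dispersion for all genes. The planted changes were larger than those of the genes described here, so that run is no check on changes of their size. Replicates differed by more than sampling noise (chi-square per degree of freedom 19.4 and 7.84), so none were merged. CPM per kb uses the union of GENCODE M21 exons, and coordinates are GRCm38 by gene identifier. A profile is log2(CPM + 0.5) centred on its mean.

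The members and lists were chosen with earlier results of these data known. Named genes are the 9 with a row, Ythdf2, every called gene and the highest and lowest gene of at least 1 CPM of each of 6 lists, Neurog3, Kit, Ddx4, Wt1 and the 3 closest profiles; others were named after their values were seen. Alternatives were other scalings and filters, no robust estimation, DESeq2 1.42.0, a replicate block, a GC offset (lowess span 0.3) and leaving out each library.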

Additional observations from a re-analysis of the deposited data

How the results depend on the processing

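None of the 9 genes was called under any of the 13 alternatives. Gdnf, Gfra1, Id4, Zbtb16, Lin28a and Sall4 stayed above 0 in each. Ret was -0.023 with the replicate block, -0.015 with the GC offset and -0.048 with both, and Uchl1 was -0.041 with the GC offset and -0.043 with the block added. Leaving out 1 library at a time, Ret ran from -0.39 to 0.33, Etv5 from -0.036 to 0.13 and Uchl1 from -0.0089 to 0.22. Over the pathway and spermatogonia lists, the 1 higher and 0 lower calls became 0 higher with DESeq2 size factors, without robust estimation and with the GC offset. With the replicate block they were 6 higher and 1 lower, and 4 and 1 when the block was joined by the GC offset. Leaving out 1 library gave 0 to 5 higher and 0 to 1 lower. Over all genes the 59 higher and 24 lower calls became 181 and 37 with library totals alone, 137 and 80 with the DESeq2 Wald test, 89 and 67 with the GC offset, 627 and 390 with the replicate block and 311 and 330 with both, while 15 lower calls were left without robust estimation. Leaving out 1 library gave 16 to 1075 higher and 2 to 536 lower, in fits where the lone library is assumed to vary like the other group. The labels do not say what a replicate number marks, and deviations of same-numbered libraries correlated at 0.108 across 17827 genes in the 2 pairs, too few to treat the numbers as a pairing. The cause of these shifts was not tested. Depth limits Gdnf and Ret most, with 30 to 60 counts in a library.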

Other observations

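Marker lists of other testis cell types, read from the same fit, gave the following summed levels, the control libraries first and the mutant-labelled libraries after them. Their counts of log2 fold changes above 0 stand beside 50.3% of all genes tested. Leydig cell markers summed to 301.0 and 365.1 CPM, then 478.3 and 357.1 CPM, with 7 of 8 log2 fold changes above 0. Endothelial markers summed to 33.9 and 23.7 CPM, then 42.8 and 36.9 CPM, with 5 of 6 tested above 0. That sum mainly follows Vwf, which had 26.1 and 14.2 CPM, then 30.8 and 23.5 CPM, with overlapping groups. Macrophage markers summed to 52.6 and 80.7 CPM, then 78.4 and 64.5 CPM, with 6 of 7 above 0. Spermatocyte markers summed to 2818 and 2331 CPM, then 2744 and 2500 CPM, with 2 of 10 above 0. These 2, Ybx3 and Piwil1, also had the highest CPM of the list, so the sum mainly follows them. Ybx3 had 1623 and 1141 CPM, then 1553 and 1413 CPM. Piwil1 had 410.7 and 318.8 CPM, then 451.6 and 371.5 CPM. Elongating spermatid markers, the protamine, transition protein and sperm tail genes, summed to 16330 and 13350 CPM, then 12750 and 13100 CPM, with 1 of 10 above 0. Of 7 epididymis markers 1 was tested, Rnase10, with a log2 fold change of -0.48, and their sum stayed at or under 8.17 CPM. None of these genes was called by edgeR, and at an unadjusted p under 0.05 there were 4 Leydig genes, 1 endothelial and 1 macrophage gene higher and 2 spermatocyte, 4 elongating spermatid and 1 epididymis gene lower, beside 7.65% higher and 6.47% lower of the 21132 genes tested.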
